A study of Mus musculus with 6 samples.

Results

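The 30 genes described here encode enzymes of cholesterol synthesis, the proteins that control them and proteins of sterol transport and storage. Many are known targets of the transcription factor SREBP2, but a place in the list does not make a gene such a target. The 30 were chosen by symbol from a list of the pathway, not by their values. All 30 were found among the 55487 genes of the deposited tables. The study compared livers of male C57/Bl6J mice on a high-fat diet, 3 control and 3 mutant libraries of polyA-enriched RNA. By their genotype labels (Alb cre +/- in the controls) all 6 samples, controls included, carry a Cre transgene driven by the albumin promoter, whose activity is largely limited to hepatocytes. The mutants add an Rxra allele labelled RXRa f/f, and the design text calls them Rxra S65A mutants. The titles instead call the controls WT and the mutants Cre, and ages are not given in the labels. Rxra encodes RXRα, a common partner of nuclear receptors, among them the oxysterol receptor LXR.

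Cholesterol is built from acetyl-CoA through mevalonate, isoprenoid diphosphates, squalene and lanosterol. The SREBP2 protein, made as a precursor in the endoplasmic reticulum membrane, is escorted to the Golgi by SCAP and cleaved there when membrane cholesterol is low, and its released part enters the nucleus and switches on nearly all genes of the route. When cholesterol is plentiful, INSIG proteins hold SCAP back. Hepatocytes are a major site of this synthesis, and their SREBP2 target genes are known to respond together to dietary cholesterol and to feeding.

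Library totals ranged from 35847386 to 43162557 estimated counts. The 22 major urinary protein genes took 1.85% to 3.09% of the counts in the controls and 12.8% to 16.9% in the mutants, and TMM scaling, which sets the typical gene equal between libraries, gave factors of 1.145 to 1.151 in the controls and of 0.863 to 0.886 in the mutants. Levels below are TMM-scaled counts at a common library size (CPM) for comparing libraries and TPM, which is per transcript length, for comparing genes. Rxra itself was at 501, 471 and 414 CPM in the controls (replicates 1 to 3 in this order throughout) and 700, 522 and 609 CPM among the mutants, a difference that missed the threshold (edgeR adjusted p = 0.0724), and these gene-level values do not show which form of the protein is encoded. All 10 hepatocyte markers were tested, 0 were called lower and 4 higher, where 6.82% and 6.64% of all tested genes were. The 4 were Cps1, Ass1, Hnf4a and Apoa1 (log2 fold changes 2.17, 1.49, 0.67 and 0.53). The summed level of the 10 markers was 86990 to 98890 CPM in the controls against 93340 to 108000 CPM for the mutants. Alb, which was not called, made up most of it, at 50360 to 62780 CPM in the controls and 53140 to 59740 CPM in the mutants.

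Cholesterol synthesis genes were lower or not distinguishable in the mutant livers, and none was called higher. Called by edgeR's quasi-likelihood test at an adjusted p under 0.05, 6 of the 30 genes fell: Hmgcs1, Acat2, Fdps, Sc5d, Tmem97 and Npc2. By comparison, 6.82% of the 14286 tested genes were called lower and 6.64% higher. The other 24 did not pass. Of these, 9 had a negative and 3 a positive log2 fold change at an unadjusted p under 0.05. The share of all tested genes at that unadjusted threshold was not counted, so these numbers have no background to be read against. DESeq2 called 11 of the 30 lower, where 10.3% of all tested genes were. It called 2 higher, Ebp and Npc1, where 1346 of the 14286 were. The median log2 fold change of the 30 was -0.43, against 0.00025 over all tested genes, and 25 of the 30 were below 0, as were 7141 of the 14286. All 3 mutants lay below all 3 controls for 9 of the 30 genes, where 17.5% of all tested genes did so, and above them for 2, Ebp and Npc1, where 17.4% did so.

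**Figure D1:**
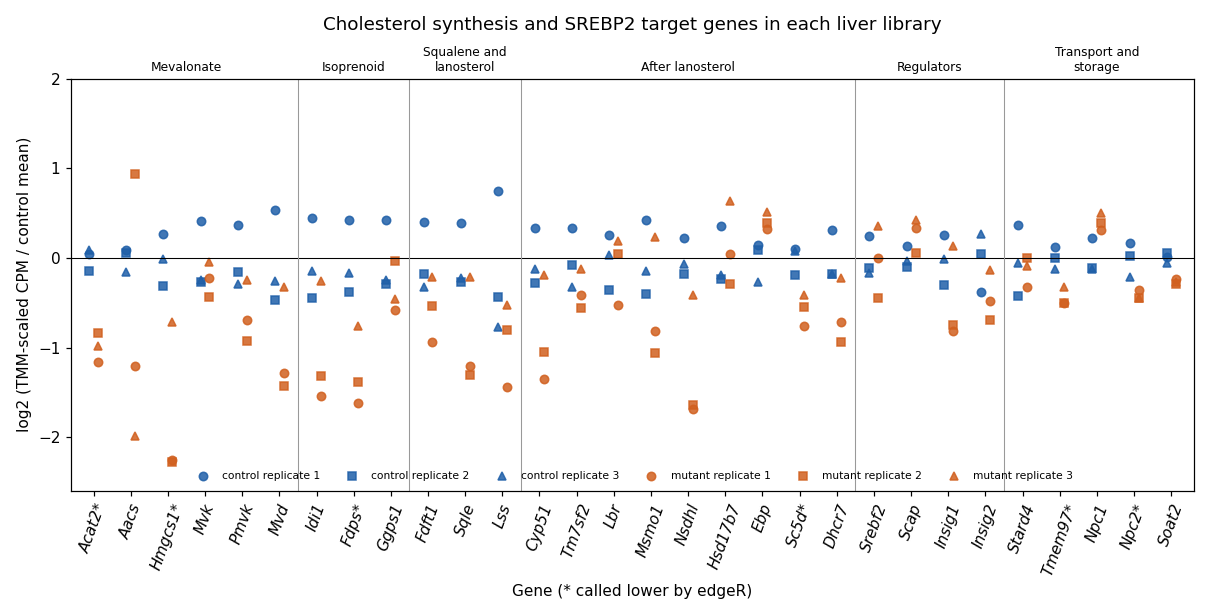
Level of each of the 30 genes in each library, as log2 of the TMM-scaled CPM over the mean of the 3 controls, ordered by step of the pathway (blue, control; orange, mutant; symbols, replicate number; asterisk, called lower by edgeR). Hmgcs1 is lowest, with mutant replicates 1 and 2 together near the bottom and mutant replicate 3 closer to the controls, a spacing that recurs in Idi1, Sqle, Cyp51 and Nsdhl.

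The first enzymes make mevalonate. Acat2, the cytosolic thiolase that joins acetyl-CoA units, lies at chr17:12942890-12960747 (mm10). Its CPM were 73.3, 64.6 and 75.9 in the controls and 31.9, 40.0 and 35.98 in the mutants. The groups are well apart and the replicates of each lie close together. It fell 1.98-fold (log2 fold change -0.99 ± 0.12, SE, edgeR adjusted p = 0.00207), and it was the only one of the 30 genes called lower in all 17 alternative analyses, with adjusted p-values up to 0.0109. Acat3, a close relative of the same family whose reads could be split with it, had 288 ± 26.4 CPM among controls and 226 ± 30.7 CPM among mutants (SD, n = 3 for each, edgeR adjusted p = 0.101).

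Hmgcs1, the cytosolic HMG-CoA synthase and a classical SREBP2 target, had the largest log2 fold change of the 30 (chr13:119690379-119708260). Its CPM were 559, 374 and 462 in the controls and 97.7, 95.8 and 284 in the mutants. Mutant replicates 1 and 2 averaged 20.8% of the control mean and mutant replicate 3 was at 61.0%. The decrease was 2.92-fold (log2 fold change -1.55 ± 0.40, edgeR adjusted p = 0.0396). Leaving out any library except mutant replicate 3 ended the call, with adjusted p-values of 0.0710 to 0.109, as did robust dispersion (0.0843), while without mutant replicate 3 the log2 fold change was -2.26 (adjusted p = 0.00110).

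The mevalonate kinase Mvk, the phosphomevalonate kinase Pmvk and the decarboxylase Mvd did not pass, with log2 fold changes of -0.23 ± 0.20, -0.595 ± 0.22 and -0.925 ± 0.35 and edgeR adjusted p-values of 0.507, 0.118 and 0.119. For each of them mutant replicate 3 overlapped the controls. DESeq2 called Mvd lower (adjusted p = 0.03855). Aacs, which makes acetoacetyl-CoA from ketone bodies, was at 40.6, 39.6 and 34.1 CPM in the controls and at 16.5, 72.7 and 9.64 CPM in the mutants. Here mutant replicate 2 was above every control and the other mutants below every control, a split singled out after the values were seen. With all libraries the log2 fold change of Aacs was -0.21 ± 0.61 (edgeR adjusted p = 0.859), without mutant replicate 2 it was -1.545 (adjusted p = 0.00895), and without mutant replicate 1 or 3 it turned to 0.12 or 0.23.

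Among the isoprenoid enzymes, Fdps, the farnesyl diphosphate synthase (chr3:89093588-89101959), was at 210, 121 and 140 CPM in the controls and at 51.0, 60.0 and 92.8 CPM in the mutants. No mutant reached the lowest control. It fell 2.31-fold (log2 fold change -1.21 ± 0.26, edgeR adjusted p = 0.0211), a call lost without control replicate 1 (0.0596), mutant replicate 1 (0.0663) or mutant replicate 2 (0.0642). Idi1, the isomerase of isopentenyl diphosphate, was at 231, 125 and 153 CPM against 58.2, 68.0 and 142 CPM, so that mutant replicate 3 lay between the controls, and it did not pass (edgeR adjusted p = 0.117). Ggps1, which makes geranylgeranyl diphosphate for protein prenylation, was low in all libraries (2.57 to 7.502 TPM) and did not pass (edgeR adjusted p = 0.416).

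None of the 3 enzymes that make squalene and close it to lanosterol passed in edgeR, where Fdft1 and Sqle had an unadjusted p under 0.05, and DESeq2 called Sqle lower. Sqle, the squalene epoxidase, was at 104, 65.4 and 67.5 CPM in the controls and at 34.1, 31.9 and 68.2 CPM in the mutants. Mutant replicates 1 and 2 were near the level of one another and mutant replicate 3 was level with control replicates 2 and 3. Its log2 fold change was -0.82 ± 0.30 (edgeR adjusted p = 0.115). The squalene synthase Fdft1 and the lanosterol synthase Lss had log2 fold changes of -0.53 ± 0.23 and -0.875 ± 0.385 (edgeR adjusted p = 0.165 and 0.174). For Lss control replicate 1, at 88.8 CPM, stood above control replicates 2 and 3 at 39.3 and 31.2 CPM. Fdft1 shares 774 exonic bases with Ctsb on the opposite strand, and Ctsb was the more abundant (616 CPM in the controls, 430 CPM in the mutants). The strandedness of the counting is not given in the sources used here, so reads of the 2 genes may be mixed there.

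Of the 9 enzymes that turn lanosterol into cholesterol, 1 fell, 0 rose and 8 did not pass. Sc5d, the lathosterol oxidase (chr9:42251595-42264256), was at 433, 354 and 427 CPM in the controls and at 240, 276 and 303 CPM in the mutants, without overlap. It fell 1.48-fold (log2 fold change -0.57 ± 0.12, edgeR adjusted p = 0.0201), and the call was lost without control replicate 1 (0.0738), control replicate 3 (0.0668) or mutant replicate 1 (0.0693). Cyp51, the lanosterol demethylase, was at 164, 108 and 120 CPM against 51.4, 63.1 and 115 CPM. With a log2 fold change of -0.775 ± 0.29 it missed the threshold (edgeR adjusted p = 0.115), though DESeq2 called it lower (adjusted p = 0.0266). Nsdhl, a sterol dehydrogenase of the demethylation complex, was just outside the threshold at 55.8, 42.3 and 45.8 CPM against 14.9, 15.4 and 35.9 CPM (log2 fold change -1.12 ± 0.32, edgeR adjusted p = 0.0533), and it was called with DESeq2 (0.00244) and without mutant replicate 3 (0.00177). It was singled out after its values were seen.

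The remaining enzymes after lanosterol had negative log2 fold changes, except Hsd17b7 and Ebp. Dhcr7, the last reductase of one branch, had all mutants below all controls (34.4 to 56.4 CPM against 57.9 to 81.4 CPM) and an edgeR adjusted p of 0.0957. DESeq2 called Dhcr7 lower (adjusted p = 0.0312). Tm7sf2 and Lbr, which encode enzymes for the same reduction of the sterol nucleus, differed widely in level, at 128 ± 29.2 and 3.89 ± 0.81 TPM in the controls (SD, n = 3), and neither passed. The methyl oxidase Msmo1 was at 192, 108 and 129 CPM against 80.8, 68.5 and 168 CPM, so that mutant replicate 3 was above 2 of the controls. Hsd17b7, a ketosteroid reductase, had a log2 fold change of 0.18 ± 0.24 (edgeR adjusted p = 0.679).

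Ebp, the sterol isomerase, stood out in the opposite direction. It was at 130, 125 and 97.4 CPM in the controls and at 147, 154 and 167 CPM in the mutants, without overlap. Its log2 fold change of 0.41 ± 0.125 missed the threshold (edgeR adjusted p = 0.0645), though it was called higher with DESeq2 and with no filter. At library totals its log2 fold change was 0.01, and with limma on log2(TPM + 1) it was -0.175.

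None of the 4 genes that control the pathway passed in edgeR or DESeq2, and Scap alone had an unadjusted p under 0.05. Srebf2, which encodes SREBP2 and is itself an SREBP2 target, was at 87.4, 68.4 and 66.0 CPM in the controls and at 73.9, 54.1 and 94.6 CPM in the mutants. The groups overlap throughout, mutant replicate 3 being the highest of all 6 libraries and mutant replicate 2 the lowest. Its log2 fold change was 0.01 ± 0.20 (edgeR adjusted p = 0.989) with TMM and -0.39 at library totals, where the median of all genes was -0.40. Scap, the escort protein, was at 133, 113 and 118 CPM against 153, 126 and 163 CPM (log2 fold change 0.28 ± 0.12, edgeR adjusted p = 0.164). It turned to -0.12 at library totals.

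Of the retention proteins, Insig1, which SREBP2 induces, was at 227, 154 and 189 CPM in the controls and at 108, 113 and 208 CPM in the mutants. Mutant replicates 1 and 2 were below every control and mutant replicate 3 was above 2 of them (log2 fold change -0.41 ± 0.255, edgeR adjusted p = 0.333). Insig2, whose liver transcript is known to be under other control than SREBP2, was at 237, 319 and 372 CPM against 222, 192 and 282 CPM (log2 fold change -0.42 ± 0.19, edgeR adjusted p = 0.186). It was one of 3 genes of the set whose highest control was not control replicate 1.

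Among the genes of sterol transport and storage, 2 of 5 fell. Tmem97, a sterol-binding protein of the endoplasmic reticulum and lysosome that binds NPC1 (chr11:78541817-78550777), was at 77.3, 70.8 and 65.1 CPM in the controls and at 50.03, 50.03 and 56.9 CPM in the mutants. Npc2, the soluble lysosomal protein that hands cholesterol to NPC1 (chr12:84754562-84773152), was at 73.2, 65.8 and 56.1 CPM against 50.6, 47.8 and 47.7 CPM. The mutants lay close together for both genes and below every control. Tmem97 had a log2 fold change of -0.44 ± 0.11 (edgeR adjusted p = 0.0317), and its call was lost without control replicate 1 (0.114), control replicate 2 (0.0859), mutant replicate 1 (0.105) or mutant replicate 2 (0.0698). Npc2 had a log2 fold change of -0.42 ± 0.12 (edgeR adjusted p = 0.0492), and its call was lost without any library but control replicate 3 (0.0996 to 0.1695).

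Npc1, the lysosomal membrane transporter, was at 156, 124 and 123 CPM in the controls and at 167, 176 and 191 CPM in the mutants, opposite in sign to Npc2 and without overlap. It missed the threshold with a log2 fold change of 0.41 ± 0.12 (edgeR adjusted p = 0.0571), was called higher with DESeq2, with no filter, with robust dispersion and without control replicate 1, and turned to -0.18 with limma on log2(TPM + 1). Soat2, which esterifies cholesterol for storage and secretion, had the narrowest groups, at 35.1, 36.2 and 33.6 CPM against 29.7, 28.5 and 29.1 CPM, without overlap, and missed the threshold with a log2 fold change of -0.26 ± 0.096 (edgeR adjusted p = 0.110). Stard4, a cytosolic sterol carrier, did not pass either (edgeR adjusted p = 0.695).

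The 30 genes shared an order among libraries within each group. Of the 3 controls, control replicate 1 was the highest for 27 of the 30 genes, against 33.8% of all tested genes, and it was at least 1.5 times the mean of control replicates 2 and 3 for 10 of them, against 8.64%. Of the 3 mutants, mutant replicate 3 was the highest for 24 of the 30, against 34.2% of all tested genes, and at least 1.5 times the mean of mutant replicates 1 and 2 for 11, against 10.9%. The 11 include Hmgcs1 (2.93 times), Nsdhl (2.37 times), Idi1 (2.25 times), Msmo1 (2.24 times) and Sqle (2.07 times), whereas Acat2, Npc2 and Soat2 were at 1.00, 0.97 and 0.998 times. This order was noticed in the data and is given with no test.

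Mutant replicates 1 and 2 were both below every control for 20 of the 30 genes (23.4% of all tested genes), and mutant replicate 3 for 11 (32.8%). Summed over the 21 enzymes, the controls had 2852, 1955 and 2155 CPM and the mutants 1158, 1279 and 1910 CPM. The sum in mutant replicate 3 was thus just below that of control replicate 2. Without mutant replicate 3, 13 of the 30 genes were called lower, where 5.09% of all tested genes were. Without control replicate 1 only Acat2 was called lower, against 2.93% of all tested genes, and without mutant replicate 1 again Acat2 alone, against 3.07%. Without mutant replicate 2 the calls were Aacs, Acat2 and Sc5d, where 4.44% of all tested genes were called lower.

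**Figure D2:**
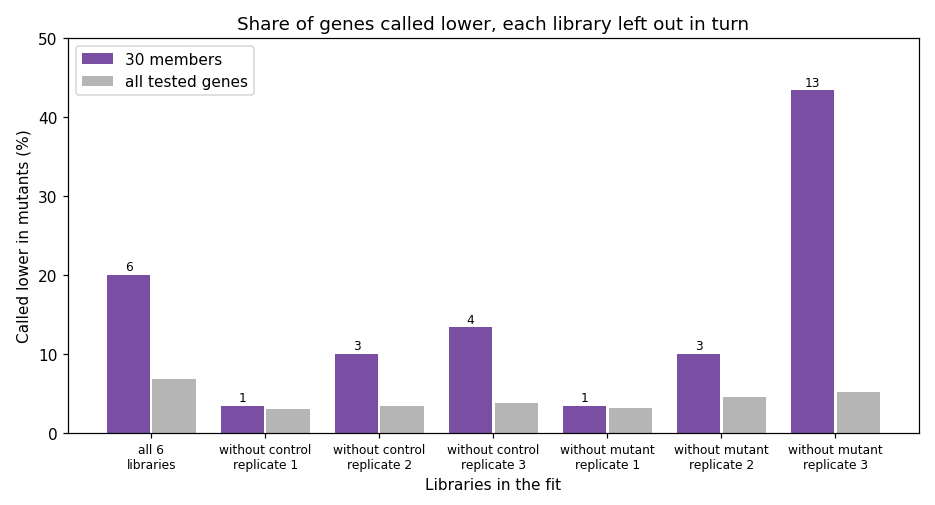
Share of the 30 genes (purple, with the count above each bar) and of all tested genes (grey) called lower in the mutants by edgeR, with all 6 libraries and with each library left out. The count is 6 with all libraries, 13 without mutant replicate 3, and 1 without control replicate 1 or mutant replicate 1.

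For the sum of the resident macrophage markers too, control replicate 1 was the highest of all libraries. Vsig4 alone was highest in control replicate 3 and Marco in control replicate 2. The sum over the 10 genes was 421, 311 and 300.5 CPM for controls and 208, 140 and 265 CPM for mutants. Mutant replicate 3 was again the highest of its group, and 3 of the 10 were called lower. For this and the following marker lists, 6.82% of all tested genes were called lower and 6.64% higher. For markers of monocyte-derived macrophages 7 of 8 were called lower, with sums of 158 to 210 CPM among controls and 83.9 to 90.5 CPM among mutants. Stellate cell and fibroblast markers were called lower in 7 of 8 cases (333 to 353 CPM against 123 to 158 CPM) and endothelial markers in 2 of 7 (96.6 to 176 CPM against 73.3 to 107 CPM). The sums of the monocyte-derived macrophage and stellate lists were highest in control replicate 2 and that of the endothelial list in control replicate 3. Those of the lymphocyte and adipocyte lists were highest in control replicate 1. In the lymphocyte list 1 of 6 genes was called lower, Ptprc (10.8 to 18.4 CPM against 2.82 to 7.34 CPM). Ptprc is not specific to lymphocytes, since other white blood cells, macrophages among them, express it. Ptprc made up most of the summed level of the list (13.9 to 22.3 CPM against 5.26 to 9.02 CPM). The others were at 1.364 CPM or less in every library and did not pass.

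Of 4 tested cholangiocyte markers 1 was called higher, Sox9, where 6.64% of all tested genes were. It was at 4.53 to 5.74 CPM in the controls and at 7.06 to 10.4 CPM in the mutants. Sox9 made up most of the summed level of the list (6.83 to 9.05 CPM against 10.5 to 13.6 CPM). For every other gene of that list the groups overlapped. Erythroid markers were called higher in 1 of 5 cases (394 to 602 CPM against 365 to 640 CPM). Of 4 adipocyte markers, Cfd was the only one tested and was called lower, Lep was at 0 in all libraries, Adipoq was at 0 in all controls, and the sums were 9.63 to 23.6 CPM against 0.0638 to 0.198 CPM. Of 4 pancreas markers none was tested, Pnlip and Cpa1 were at 0 in all libraries, and no sum exceeded 0.835 CPM. The part of these cell types in the levels of the 30 genes was not tested, and in whole tissue fewer cells of a type and less RNA per cell cannot be told apart.

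Per transcript length, the most abundant of the 30 genes in the controls were Insig2 (295 ± 67.6 TPM), Sc5d (287 ± 32.4 TPM), Hmgcs1 (242 ± 47.7 TPM) and Fdps (226 ± 66.8 TPM, SD, n = 3 each). Insig2 and Sc5d, and likewise Hmgcs1 and Fdps, differed by less than either SD, while Sc5d and Hmgcs1 differed by more than the SD of the first and less than that of the second. The least abundant were Ggps1 (5.62 ± 1.64 TPM) and Lbr. In the mutants Insig2 (147 ± 32.7 TPM) and Sc5d (128 ± 14.5 TPM) were still first and second, followed by Ebp (110.5 ± 8.61 TPM), seventh in the controls at 126 ± 17.6 TPM. Hmgcs1 was eighth in the mutants at 55.0 ± 38.1 TPM.

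TPM are shares of each library's transcripts and carry no correction for composition, and on this scale all 3 mutants lay below all 3 controls for 25 of the 30 genes, where 64.5% of all tested genes did so, and above them for 0 (1.9%). The 5 exceptions were Aacs, Msmo1, Hsd17b7, Ebp and Npc1.

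**Figure D3:**
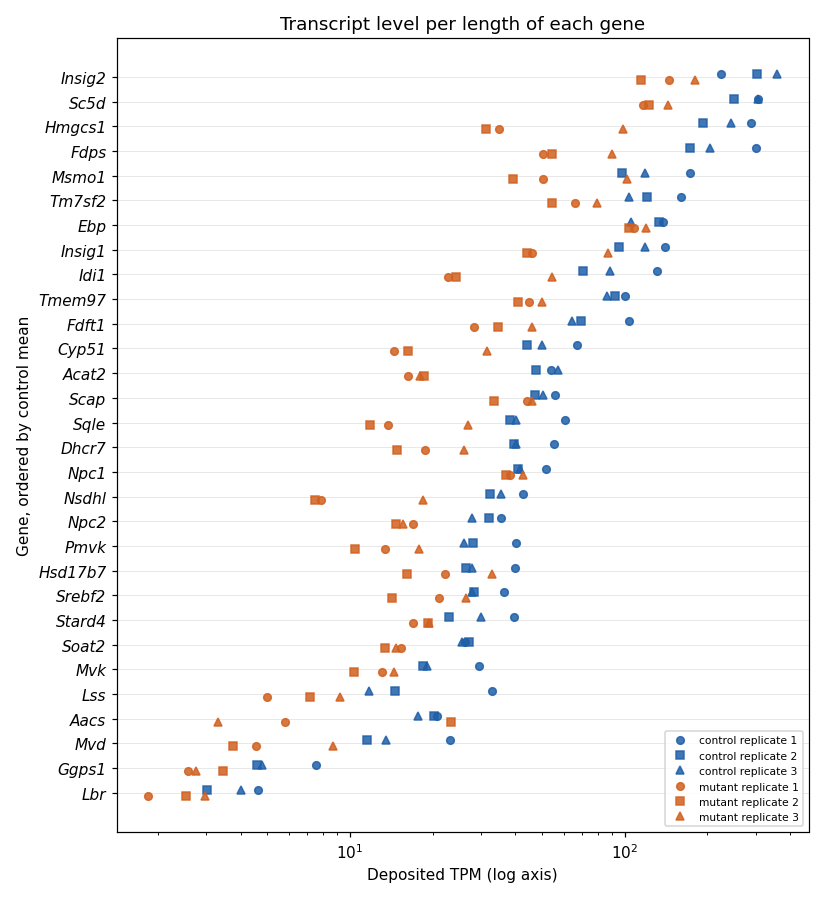
Deposited TPM of each gene in each library on a log axis, ordered by the control mean (blue, control; orange, mutant; symbols, replicate number). Insig2, at a mean of 295 TPM, is at the top and Lbr, at 3.89 TPM, at the bottom, and the groups overlap in Aacs, Msmo1, Hsd17b7, Ebp and Npc1 only.

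The number of genes called depended on the scaling. At library totals the median log2 fold change of all tested genes was -0.40 and that of the 30 genes -0.82. The change of scaling moved nearly all genes by one common amount, so the distance of the 30 from the typical gene, -0.43, was bound to be the same as with TMM and is no separate evidence. There 20 of the 30 were called lower and 0 higher, against 31.5% of all tested genes lower. Split by direction, 93.9% of all calls at library totals were lower and 6.11% higher, where TMM gave 50.7% and 49.3%. Totals without the major urinary protein genes gave 14 lower (13.7% of all tested genes), TMM with no filter on low counts 14 lower (5.45%) and DESeq2 11 lower (10.3%). With limma on log2(TPM + 1) 25 of the 30 were called lower, against 63.6% of all genes tested there, and their median of -1.07 was -0.58 relative to the median of all genes. The sign of Hsd17b7, Srebf2 and Scap turned at library totals, and that of Ebp and Npc1 turned with limma on TPM.

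**Figure D4:**
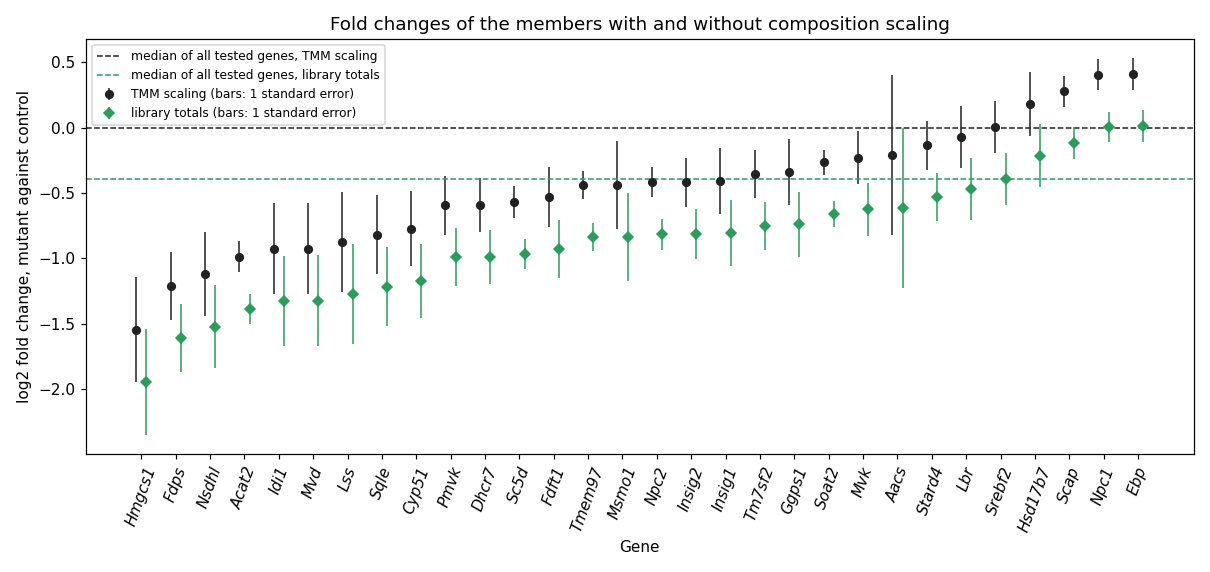
Log2 fold change of each gene, mutant against control, with TMM scaling (black circles) and at library totals (green diamonds), with bars of 1 standard error and dashed lines at the median of all tested genes. Both series run in parallel, about 0.40 apart, from Hmgcs1 at -1.55 with TMM to Ebp at 0.41.

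Other genes of sterol metabolism outside the 30 were taken from 3 lists of 49 genes, of which 45 were tested. Of the 45, 6 fell, 4 rose and 35 did not pass, where 6.82% of all tested genes were called lower and 6.64% higher. Their median log2 fold change was -0.06. Among the 21 that encode further enzymes, their electron donors and the machinery that processes SREBP or degrades sterol-regulated proteins, 3 fell and 3 rose. Por, the reductase that supplies electrons to CYP51 and SQLE, was at 269, 244 and 169 CPM in the controls and at 866, 660 and 634 CPM in the mutants (log2 fold change 1.66 ± 0.19, edgeR adjusted p = 0.00164), and it was called higher also at library totals (1.27, adjusted p = 0.00291). Every mutant was well above every control.

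The second electron supply differed in its parts. Cyb5b, a membrane cytochrome b5, fell from 415 ± 45.8 to 225 ± 33.5 CPM (edgeR adjusted p = 0.00506) and the reductase Cyb5r3 from 447 ± 13.2 to 284 ± 14.2 CPM (edgeR adjusted p = 0.00266, SD, n = 3 each). The cytochrome b5 gene Cyb5a rose from 601 ± 17.6 to 804 ± 72.7 CPM (edgeR adjusted p = 0.0256) with TMM, and its log2 fold change of 0.42 was 0.02 at library totals and -0.18 with limma on log2(TPM + 1). Syvn1, a ubiquitin ligase of the endoplasmic reticulum, rose by a log2 fold change of 0.47 ± 0.095 (edgeR adjusted p = 0.0170), which was 0.07 at library totals and -0.13 with limma on TPM.

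Among 16 tested genes of sterol uptake and trafficking 3 fell and 1 rose, where 6.82% and 6.64% of all tested genes did so. Rdh11, a retinol dehydrogenase known as a target of SREBP, was at 45.4, 36.3 and 31.2 CPM in the controls and at 18.0, 12.5 and 19.3 CPM in the mutants (log2 fold change -1.18 ± 0.20, edgeR adjusted p = 0.00784). Lipa, the lysosomal acid lipase that frees cholesterol from its esters, fell from 308 ± 15.7 to 217 ± 7.32 CPM (edgeR adjusted p = 0.00865). Stard5, a sterol and bile acid carrier, rose from 97.3 ± 6.98 to 139 ± 10.8 CPM with TMM (edgeR adjusted p = 0.0154), and its log2 fold change of 0.51 was -0.09 with limma on log2(TPM + 1). None of 8 genes of the isoprenoid side branches to dolichol, ubiquinone and prenylated proteins passed in edgeR (0 at an unadjusted p under 0.05), with summed levels of 167 to 173 CPM for controls and 180 to 183 CPM for mutants.

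Promoter sequence was available for 24 of the 30 genes in RefSeq windows of 300 bases (GRCm38.p6), running from 250 bases before the start to 50 after it. SREBP2 binds sterol regulatory elements, usually beside a CCAAT box bound by NF-Y or a GC box bound by Sp1. Searched on both strands, the letters TCACNCCAC, a sterol regulatory element form, stood in the window of 1 of the 24 genes, Hmgcs1, and in 1.44% of all 27025 genes with a window, and its form TCACCCCAC, a subset of the first, in that same gene and in 0.614%. CCAAT stood in 21 of the 24 genes and in 41.1% of all genes, GGGCGG in 21 and in 38.2%, and the palindromic E-box CACGTG in 5 and in 8.09%. These are matches of letters, and most known sterol regulatory elements differ from the exact form searched.

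The sequences before the start are shown for the 5 called genes that had a window, because these genes were all called lower (this choice was made after their values were seen), with TCACCCCAC in capitals as well as CCAAT or, where the match is on the other strand, its complement ATTGG. They run from base -150 to -1 for Hmgcs1 and from -100 to -1 for the others, 5′ to 3′ along the gene. Hmgcs1 lies on the plus strand (chr13:119690201-119690350), and Sc5d (chr9:42264301-42264400), Tmem97 (chr11:78550736-78550835), Npc2 (chr12:84773113-84773212) and Acat2 (chr17:12960726-12960825) on the minus strand.
Hmgcs1: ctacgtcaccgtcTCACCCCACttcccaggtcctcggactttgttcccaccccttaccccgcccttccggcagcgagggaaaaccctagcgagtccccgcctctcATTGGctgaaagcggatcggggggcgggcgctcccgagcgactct
Sc5d: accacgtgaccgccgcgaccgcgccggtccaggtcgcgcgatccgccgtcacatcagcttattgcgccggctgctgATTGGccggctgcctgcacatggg
Tmem97: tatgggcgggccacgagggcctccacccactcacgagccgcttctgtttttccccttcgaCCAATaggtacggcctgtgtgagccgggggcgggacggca
Npc2: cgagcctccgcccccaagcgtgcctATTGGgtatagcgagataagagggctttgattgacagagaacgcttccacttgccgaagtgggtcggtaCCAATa
Acat2: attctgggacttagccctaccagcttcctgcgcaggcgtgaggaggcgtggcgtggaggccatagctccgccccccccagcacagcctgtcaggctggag

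In Hmgcs1, the gene with the largest decrease, the sterol regulatory letters begin at base -137 and the CCAAT letters of the printed stretch at -45. CCAAT begins at -24 in Sc5d, at -40 in Tmem97 and at -75 and -6 in Npc2. The printed stretch of Acat2, the gene with the smallest p, holds neither. No measurement of binding at these promoters was analysed here.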

How the data were processed

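Liver RNA of 3 control and 3 mutant samples was polyA-enriched, per the labels' protocols, and cutadapt, STAR and the build mm10 are named in the submitters' processing notes. The quantifier, annotation release and strandedness are unknown (not given in the sources used here). Tables of estimated counts and of TPM for 55487 genes were deposited by the authors. No nonzero estimated count was whole (tolerance 1e-06), and over 10983 genes the ratio of estimated count to TPM split into 1 gene term and 1 library term within 5.72e-10, so counting error is only approximated. Columns were matched to samples by title.

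The estimated counts were rounded, and differences were tested with edgeR 4.0.16 (R 4.3.3) after filterByExpr and TMM scaling, by the quasi-likelihood F-test on group with Benjamini-Hochberg adjustment over 14286 genes. Whether libraries are separate animals is not labelled: p-values measure spread among these libraries only, which may be technical. The alternatives were RLE factors, library totals with or without major urinary protein genes, no filter, a CPM filter of 1, DESeq2 1.42.0, robust dispersion, a block on the replicate number, leaving out single libraries, and limma 3.58.1 on log2(TPM + 1) or log2(TPM + 0.1), filtered at 1 TPM or unfiltered.

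All 30 genes are named or counted, with values per library for those called, the 4 regulators, Hmgcs1, Sqle, Cyp51 and Soat2. Others with such values were added after these were seen. From the other sterol lists only called genes are named, at most 4 per list and direction, plus Acat3. The marker genes Alb, Vsig4 and Marco, which were not called, were named after their values were seen. Genes and lists were chosen with earlier results of these data known. Coordinates are from GENCODE M21 (mm10) and promoters from RefSeq.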

Additional observations from a re-analysis of the deposited data

How the results depend on the processing

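Acat2 was called lower in all 17 alternatives, and none of the 6 called genes of the 30 changed sign in them. Of the called genes in the other sterol lists, Cyb5a, Syvn1 and Stard5 turned from higher to -0.18, -0.126 and -0.087 with limma on log2(TPM + 1). The 6 genes called lower became 20 at library totals, 14 at totals that leave out the major urinary protein genes, 14 with no filter, 11 with DESeq2, 25 with limma on log2(TPM + 1), 25 on log2(TPM + 0.1) and 21 on log2(TPM + 1) with no filter, and 1 to 13 with a library left out. The genes called higher, 0 with TMM, were 2 with no filter, 2 with DESeq2, 1 with robust dispersion and 0 to 1 with a library left out. Over all genes, 1923 calls became 4794 at library totals, 7579, 7526 and 6581 in the 3 limma fits in that order, and 882 to 1514 with a library left out. The 10 calls in the other sterol lists became 24 at library totals, 35, 35 and 31 in the limma fits and 6 to 11 with a library left out. The median of the 30 genes, -0.43 with TMM, was -0.82 at library totals, -1.07, -1.08 and -1.07 in the limma fits and -0.615 to -0.28 with a library left out.

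With the replicate number as a block, 5 of the 30 were called lower: the pairing added Nsdhl and lost Tmem97 and Npc2, and 1558 genes were called in all. Same-numbered libraries did not deviate together (r = 0.0554, -0.00846 and 0.0921 across genes), and not every library correlated best with its own number.

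Among the 30, the genes whose sign turned had not been called. The log2 fold change of Hsd17b7 was -0.215 at library totals, -0.036 where these leave out the major urinary protein genes, -0.11 to 0.398 with a library left out and -0.42, -0.44 and -0.42 in the limma fits. Srebf2 gave -0.39 and -0.21 in the same 2 totals, -0.012 with the CPM filter, -0.021 with the block, -0.21 to 0.181 with a library left out and -0.59, -0.61 and -0.59 with limma. Scap gave -0.12 at library totals and -0.315, -0.32 and -0.315 with limma, Ebp -0.175, -0.176 and -0.175, and Npc1 -0.18 in all 3. With a library left out, Aacs ran from -1.545 to 0.231, Mvk from -0.347 to 0.032, Lbr from -0.218 to 0.12 and Stard4 from -0.305 to 0.095. The cause of these changes was not tested beyond what the settings themselves alter.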
